A study of Mus musculus with 2 samples.

Results

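The 10 genes studied here mark astrocytes and radial glia, and were followed on the ribosomes of the neonatal mouse brain: Apoe, Clu, Slc1a2, Slc1a3, Aldoc, Glul, Aqp4, Gja1, Fabp7 and Aldh1l1. The set was defined by gene symbol, and all 10 symbols were found, each under a single gene identifier, among 45578 genes in the table. Ribosome-protected fragments (footprints) were counted from the polysomes of 2 brains at postnatal day 5. Both mice belonged to 1 group, called control in the labels, of genotype Smn+/-; SMN2tg/0 on the FVB strain background, so each carried 1 disrupted copy of mouse Smn and a human SMN2 transgene. No wild-type animal and no other group was analysed here, and the brains were biological replicates 1 and 2 (n = 2). The comparisons therefore describe how strongly each gene occupied ribosomes, how its footprints were spread over annotated transcripts, and how far the replicates differed.

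Radial glia are the progenitors that line the ventricles of the embryonic brain, and many of them turn into astrocytes around birth. Astrocytes clear glutamate from synapses, convert it to glutamine, supply lipid particles to neurons and wrap blood vessels with endfeet. Fabp7 and Slc1a3 are used as markers of radial glia as well as of young astrocytes, whereas Slc1a2, Aqp4 and Aldoc are markers of more mature astrocytes. Apoe is also made by microglia, and Clu by ependyma, choroid plexus and some neurons, so neither marks astrocytes alone.

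The table held 1866831 footprints in replicate 1 and 5261878 in replicate 2, a ratio of 2.82. Levels are given as CPM, the footprints of a gene per 1000000 of the library. Footprint density is CPM per kilobase of the longest annotated coding sequence of the gene, and it is the scale on which different genes are compared. The replicates were compared with a two-sided exact binomial test, and a gene was called when its Benjamini-Hochberg adjusted p over 16427 genes was under 0.05. Intervals are exact 95% intervals and, like that test, they cover counting error only. In whole brain, fewer cells of a type and less RNA per cell cannot be told apart.

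All 10 genes were translated at levels above the median coding gene. Together they held 0.553% of the footprints of replicate 1 and 0.466% of those of replicate 2, a mean of 0.509% ± 0.0617 (SD, n = 2). Apoe alone supplied 39.8% of their 10324 footprints in replicate 1 and 34.7% of their 24505 in replicate 2. The median coding gene with a mean count of at least 10 had a density of 23.5, and the median of the 10 genes was 305. Of these genes, 8 lay in the top 10% of the 13349 ranked coding genes; Aqp4, at percentile 88.3, and Aldh1l1, at percentile 75.9, lay below it.

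**Figure D1:**
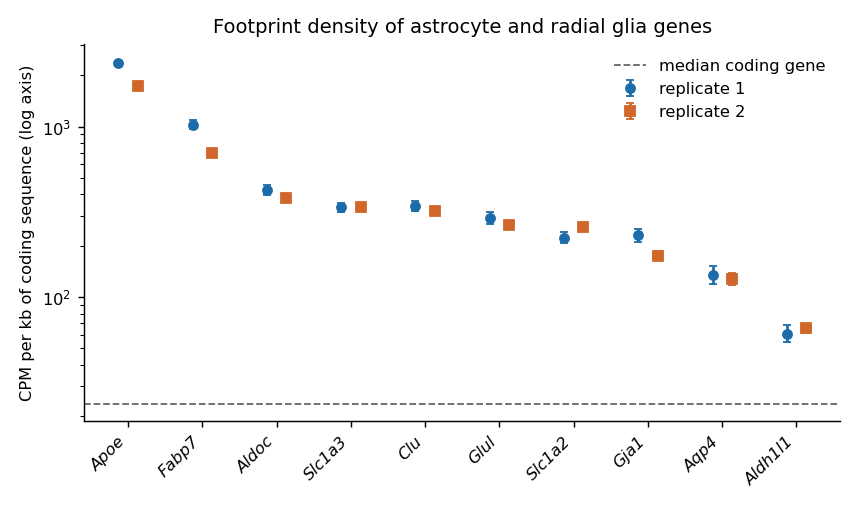
Footprint density of each gene (CPM per kilobase of coding sequence, log axis) in replicate 1 (circles) and replicate 2 (squares), with exact 95% counting intervals; the dashed line is the median coding gene at 23.5. Apoe and Fabp7 stand above the other 8 genes in both replicates, and Aldh1l1 is the lowest.

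Apoe was the densest gene of the set, and the other lipid carrier, Clu, ranked 5 of 10. Apoe (ENSMUSG00000002985), the main apolipoprotein secreted by astrocytes, had 4105 and 8514 footprints in replicates 1 and 2. These correspond to 2199 CPM (2132 to 2267) and 1618 CPM (1584 to 1653). Replicate 1 was the higher one, and the intervals did not overlap. With a coding sequence of 936 nucleotides, its density was 2039 ± 439 (SD, n = 2), rank 7 among the coding genes and 86.9 times their median. Apoe has 10 coding transcripts that share its footprints. With only the highest transcript per gene counted, in the gene and in the library total, its density was 594. That was below the 1324 of Fabp7 in the same setting. Per kilobase of its longest transcript, with all transcripts counted, the density of Apoe was 1377.

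Clu (ENSMUSG00000022037), which encodes the secreted chaperone and apolipoprotein clusterin, had 865 and 2278 footprints. Its level was 463 CPM (433 to 495) and 433 CPM (415 to 451), and these intervals overlapped. Clu density was 333 ± 16.0, so Apoe was denser by a factor of 6.83 (6.35 to 7.36) in replicate 1 and 5.38 (5.13 to 5.64) in replicate 2. Other apolipoproteins were far below Apoe. Apod, a lipocalin that carries lipids, had 101 and 416 footprints and a density of 117 ± 31.0, and Apoc1 had 10 and 22 footprints.

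Of 10 genes fixed as partners in lipid transport, 9 had enough footprints to test. Lpl, the lipoprotein lipase, was the densest at 86.4 ± 19.1, followed by the sorting receptor gene Sort1 at 55.4 ± 8.96. Lrp1, an endocytic receptor for Apoe, had 880 and 2279 footprints, but its coding sequence of 13638 nucleotides gave a density of 33.2 ± 1.98. Abca1, the transporter that loads cholesterol onto Apoe particles, had a density of 12.1 ± 0.245.

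The genes of glutamate handling lay close to each other. Slc1a3 (ENSMUSG00000005360), the glutamate transporter GLAST, had 1025 and 2889 footprints. Its level was 549 CPM in both (516 to 584 in replicate 1, 529 to 569 in replicate 2), and its density 336 in both. Slc1a2 (ENSMUSG00000005089), the transporter GLT-1, had 715 and 2333 footprints. Its CPM values were 383 (355 to 412) and 443 (426 to 462), the largest excess in replicate 2 within the set. Its density was 240.4 ± 24.8.

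GLAST exceeded GLT-1 when all transcripts of each gene were counted. The ratio of densities was 1.51 (1.37 to 1.66) in replicate 1 and 1.30 (1.23 to 1.38) in replicate 2. This order depended on which transcripts were counted: over transcripts annotated as protein coding alone, the ratio was 0.658 in replicate 1 and 0.573 in replicate 2. Coding transcripts held 43.2% ± 0.270 of Slc1a3 footprints against 98.8% ± 0.0717 of those of Slc1a2.

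The other transporters of the family were lower than both. Slc1a4, which carries neutral amino acids such as serine, had a density of 148 ± 21.1. Slc1a1, the transporter EAAC1 of neurons, had a density of 86.6 ± 13.1, and Slc1a3 exceeded it by a factor of 4.35 (3.76 to 5.04) in replicate 1 and 3.51 (3.24 to 3.80) in replicate 2. Slc1a6, the transporter of Purkinje cells, had a density of 26.9 ± 2.11 and Slc1a5 one of 9.37 ± 0.367. Slc1a7 had no footprint in either library, and the limit for such a gene, 3 counts, was 1.61 CPM and 0.570 CPM in the respective replicates.

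Glul (ENSMUSG00000026473), the glutamine synthetase that closes the glutamate cycle in astrocytes, had 611 and 1556 footprints. Its level was 327 CPM (302 to 354) and 296 CPM (281 to 311), with overlapping intervals. Its density was 278 ± 19.9. Glul exceeded Glud1, the mitochondrial glutamate dehydrogenase, by a factor of 1.41 (1.26 to 1.58) and 1.48 (1.38 to 1.59). Glud1 at 193 ± 20.5 and Got2 at 174 ± 25.8 were the densest of the 12 measured genes in the list of the glutamate and glutamine cycle.

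Among the metabolic genes, Fabp7 was the densest. Fabp7 (ENSMUSG00000019874), the brain fatty acid binding protein of radial glia, had 1088 and 2098 footprints. That gave 583 CPM (549 to 618) and 399 CPM (382 to 416), higher in replicate 1 with intervals that did not overlap. Its density was 866 ± 230 on the longest coding sequence of 567 nucleotides. On the 399 nucleotides of its transcript with the most footprints, the density was 1230. Fabp5, the epidermal type, had a density of 583 ± 163 and Fabp3, the heart type, one of 140.4 ± 1.26. Fabp7 exceeded Fabp5 by a factor of 1.47 (1.33 to 1.64) and 1.504 (1.39 to 1.62).

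Aldoc (ENSMUSG00000017390), the glycolytic aldolase that is enriched in astrocytes, had 868 and 2197 footprints. Its level was 465 CPM (435 to 497) and 418 CPM (400 to 435), with intervals that overlapped only at their ends. Aldoa, the aldolase made by most cells, was denser at 793 ± 68.4 against 404 ± 30.7 for Aldoc. The ratio of Aldoc to Aldoa was 0.506 (0.467 to 0.548) and 0.514 (0.488 to 0.540). With only the transcript with the most footprints counted for each gene, the mean ratio was 0.992.

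Aldh1l1 (ENSMUSG00000030088), a folate enzyme that is widely used to mark astrocytes, had 308 and 932 footprints. Its level was 165 CPM (147 to 184) and 177 CPM (166 to 189), with overlapping intervals. Its coding sequence of 2709 nucleotides was the longest of the set, and its density of 63.1 ± 3.17 the lowest. The mitochondrial relative Aldh1l2 was lower still, by a factor of 4.92 (3.75 to 6.55) and 5.05 (4.31 to 5.93). In the list of 12 one-carbon and folate genes, the densest were Shmt2, a mitochondrial serine hydroxymethyltransferase, at 32.7 ± 5.78, and Mthfs at 24.5 ± 7.46.

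The membrane channels of astrocytes ranked 8 (Gja1) and 9 (Aqp4) of the 10 genes by density. When only the highest transcript per gene was counted, they ranked 3 and 5, at 394 and 256. Each has 1 annotated transcript, so its counts were the same in that setting. The library total there was the smaller sum over the highest transcripts, and genes with several transcripts lost counts. Gja1 (ENSMUSG00000050953), the gap junction protein connexin 43, had 494 and 1057 footprints, or 265 CPM (242 to 289) and 201 CPM (189 to 213). Replicate 1 was the higher one and the intervals did not overlap. Aqp4 (ENSMUSG00000024411), the water channel of astrocyte endfeet, had 245 and 651 footprints, or 131 CPM (115 to 149) and 124 CPM (114 to 134), with overlapping intervals. Gja1 had a density of 203 ± 39.2 and Aqp4 one of 131 ± 5.47.

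Gja1 was the densest of 10 connexins. Gjd2, the connexin 36 of neuronal gap junctions, came next at 47.9 ± 2.07. Gjb6, the connexin 30 that marks mature astrocytes, had 26 and 91 footprints, and Gja1 exceeded it by a factor of 12.997 (8.76 to 20.1) in replicate 1 and 7.95 (6.41 to 9.95) in replicate 2. Aqp1, a water channel of choroid plexus, had a density of 13.3 ± 0.861, below Aqp4 by a factor of 9.72 (6.22 to 16.0) and 10.05 (7.60 to 13.5). In the list of 10 endfoot genes, Mlc1, a membrane protein of astrocyte endfeet, had a density of 133 ± 3.17.

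**Figure D2:**
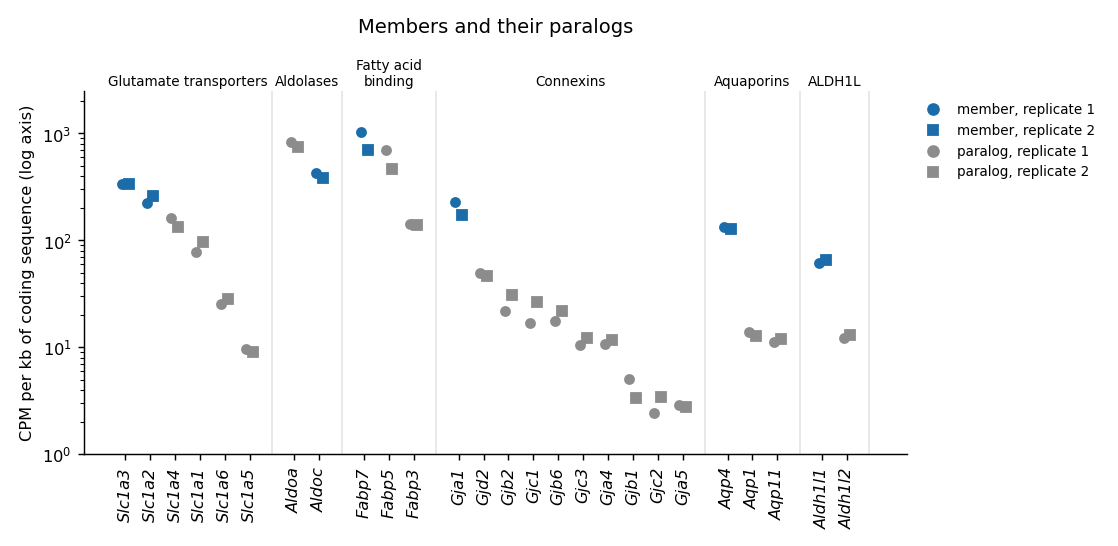
Footprint density (CPM per kilobase of coding sequence, log axis) of members (blue) and their paralogs (grey) in replicate 1 (circles) and replicate 2 (squares), by family; genes without footprints in a library are left out. Slc1a3, Slc1a2, Fabp7, Gja1, Aqp4 and Aldh1l1 lie above their paralogs, while Aldoc lies below Aldoa.

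The order by density ran from Apoe through Fabp7, Aldoc, Slc1a3, Clu, Glul, Slc1a2, Gja1 and Aqp4 to Aldh1l1. Neighbours were taken to differ when the interval of their ratio excluded 1 on the same side in both libraries, which held for 6 of 9 pairs. Slc1a3 and Clu did not differ in this sense, with ratios of 0.978 (0.893 to 1.07) and 1.05 (0.990 to 1.11). Glul exceeded Slc1a2 in replicate 1 by a factor of 1.31 (1.17 to 1.46), but the ratio in replicate 2 was 1.02 (0.958 to 1.09). Slc1a2 and Gja1 had a ratio of 0.967 (0.861 to 1.09) in replicate 1 and 1.48 (1.37 to 1.59) in replicate 2. Replicate 2 alone gave the order of the mean for all 10 genes, and replicate 1 alone for 6 of them. The order depended on how transcripts were counted: 4 of 10 genes kept their rank over coding transcripts only, 3 per kilobase of the longest transcript, and 1 when only the most abundant transcript counted. Aldh1l1 ranked 10 in each of these settings except the longest transcript, where it ranked 8.

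The 10 genes had 59 annotated transcripts, and the classes of transcript that held the footprints differed widely between them. Apoe, Fabp7, Gja1 and Aqp4 have only transcripts annotated as protein coding. Of the 8 annotated transcripts of Slc1a3, 4 are annotated as retained introns. On these were counted 49.7% of its footprints in replicate 1 and 49.6% in replicate 2. Over all genes these shares were 9.09% and 9.64%. Slc1a3-006, a retained-intron transcript of 4435 nucleotides, held 29.2% (26.4 to 32.1) and 28.5% (26.8 to 30.2) of the footprints of the gene. The coding transcript Slc1a3-001 held 37.2% (34.2 to 40.2) and 36.1% (34.4 to 37.9).

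Aldoc had 31.1% and 32.04% of its footprints on processed transcripts, which are annotated without a coding sequence, against 5.40% and 5.79% over all genes. Its transcript Aldoc-006, of 788 nucleotides and in this class, held 18.5% (16.0 to 21.3) and 17.8% (16.2 to 19.4). Clu had 7.51% and 7.64% on a target of nonsense-mediated decay and 11.4% and 11.9% on retained introns. Whether ribosomes sat on these non-coding transcripts themselves was not tested. How far the shares follow the number of overlapping transcripts annotated in each class was not tested either.

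**Figure D3:**
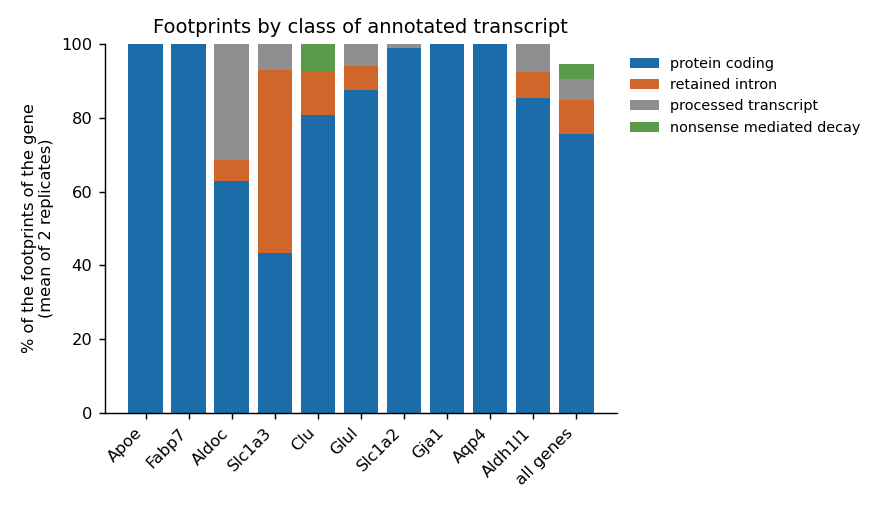
Share of the footprints of each gene (%, mean of 2 replicates) on transcripts annotated as protein coding, retained intron, processed transcript or target of nonsense-mediated decay, with all genes of the table at the right, whose bar ends below 100 because other classes are not drawn. Retained-intron transcripts hold 49.6% of Slc1a3 footprints and processed transcripts 31.6% of those of Aldoc.

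Several coding transcripts share a coding length but differ in their untranslated regions. Aldoc-001 is 2786 nucleotides long and Aldoc-002 1700, with the same coding length of 1092. They held 287 and 262 footprints in replicate 1, a ratio of 1.10 (0.923 to 1.30), and 686 and 681 in replicate 2, a ratio of 1.01 (0.905 to 1.12). Aldh1l1-001, of 4175 nucleotides, and Aldh1l1-002, of 3043, share a coding length of 2709. Their ratios were 0.985 (0.768 to 1.26) and 1.04 (0.904 to 1.20). Apoe gave 1 pair with intervals above 1 in both libraries: Apoe-003, of 514 nucleotides, over Apoe-008, of 472, at 1.34 (1.05 to 1.70) and 1.21 (1.03 to 1.44), with a coding length of 216. Apoe-001 over Apoe-010 had ratios of 1.10 (0.978 to 1.23) and 1.11 (1.02 to 1.20).

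Slc1a2-001 carries a 3′ untranslated region of 9250 nucleotides and a coding sequence of 1719. It held 202 and 584 footprints, where Slc1a2-002, with 209 and 1710 nucleotides, held 157 and 460. These 2 transcripts differ in coding length and are not part of the next comparison. It took pairs of equal coding length with a length ratio of at least 1.5. Each transcript also needed at least 50 footprints in replicate 1. Across the 147 genes with a pair within these limits, the median length ratio was 2.202. The median ratio of their counts was 1.09 in replicate 1 and 1.07 in replicate 2. In these medians, the counts differed less than the lengths did. The limit of 50 footprints can leave out pairs with very unequal counts, which favours count ratios near 1. This comparison was chosen after the data were examined.

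Between the replicates, 6 of the 10 genes were called, all lower in replicate 2. Over all genes tested, 17.4% were called, 11.5% lower and 5.95% higher in replicate 2. The share called was 4.19% in the lowest 10% of coding genes by density and 58.3% in the highest 10%, where 8 of the members lay. The count of 6 is near that share, so it is no result about these genes in particular. The median log2 ratio of replicate 2 over replicate 1 was -0.25 for the set, -0.27 for the top 10% by density and 0.01 for all genes tested. TMM scaling moved all log2 ratios down by 0.13 relative to library totals.

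Fabp7 and Apoe differed most. By the exact binomial test, the log2 ratio of Fabp7 was -0.67 (adjusted p 1.03e-31), that of Apoe -0.57 (adjusted p 5.99e-88) and that of Gja1 -0.52 (adjusted p 3.33e-09). The differences at Aldoc (-0.28, adjusted p 3.48e-05), Glul (-0.27, adjusted p 0.00127) and Clu (-0.22, adjusted p 0.00157) were smaller. Aqp4 at -0.21, Slc1a3 at -0.13, Aldh1l1 at -0.02 and Slc1a2 at 0.08 were not called, with adjusted p-values of 0.186, 0.0806, 0.939 and 0.404.

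The calls depended on scaling and on a trend with footprints per kilobase. With library totals, Clu and Glul were no longer called, Slc1a2 was called higher in replicate 2 at 0.21, and the calls stood at 4 lower and 1 higher in place of 6 and 0. In a further setting, the trend of the log2 ratio with footprints per kilobase of the longest transcript was removed. This measure differs from the density per kilobase of coding sequence used elsewhere. Fabp7 (-0.19), Apoe (-0.08) and Gja1 (-0.35) were then called lower, and Clu (0.21) and Slc1a3 (0.16) higher. Fabp7, Apoe and Gja1 were called lower by the exact binomial test in every setting tried. The edgeR exact test with a common dispersion called none of the 10 genes, with 0 at an unadjusted p under 0.05, and 11 of all genes. Its dispersion was estimated from the same 2 libraries treated as 1 group. The differences tested therefore enter the dispersion, so few calls were possible and nothing is concluded from their number.

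**Figure D4:**
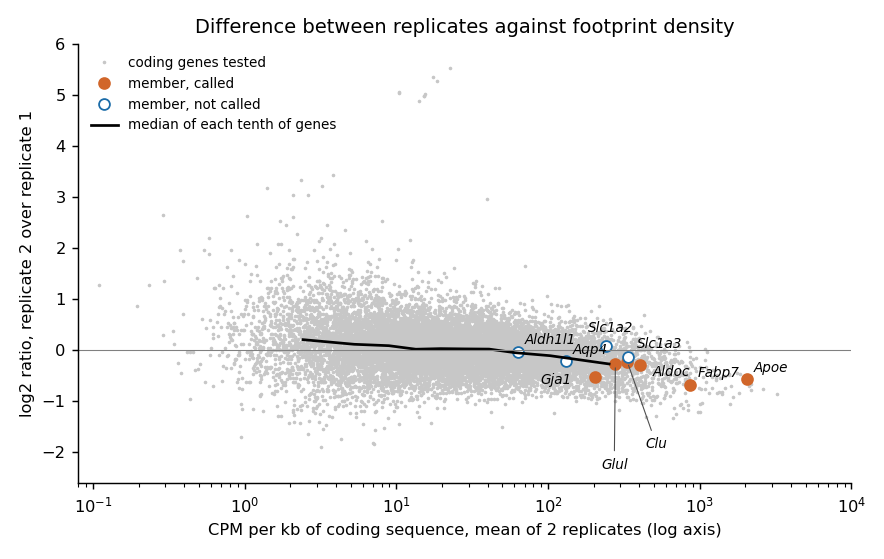
Log2 ratio of replicate 2 over replicate 1 against footprint density (CPM per kilobase of coding sequence, mean of 2 replicates, log axis) for 13349 coding genes (grey), with called members filled and uncalled members open; the black line joins the medians of 10 equal bins of the genes. The line falls from 0.21 at the lowest densities to -0.27 at the highest, where 8 of the members lie.

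Of 53 member transcripts averaging 10 or more footprints, 16 were called, all lower in replicate 2. Over the table, 5.08% of 43655 transcripts were called. That share was not computed at matched density, so nothing is read from the gap. They were the 10 transcripts of Apoe, both of Fabp7, the single transcript of Gja1, and the coding transcripts Clu-001, Glul-001 and Aldoc-001. By that exact test Glul-001 had a log2 ratio of -0.51 (adjusted p 5.85e-06), and its share of the gene was 57.8% (53.7 to 61.7) in replicate 1 and 48.9% (46.4 to 51.4) in replicate 2. Clu-001 had one of -0.44 (adjusted p 0.000250). Its share was 39.3% (36.035 to 42.7) against 33.9% (31.9 to 35.9). For these 2 genes the share of the longest coding transcript differed between the libraries beyond counting error, while Fabp7-001 kept shares of 56.1% (53.1 to 59.0) and 54.7% (52.6 to 56.9).

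Other astrocyte genes moved in both directions. Of 28 genes in the list, all tested, 12 were called lower and 3 higher in replicate 2, and the list median was -0.28. That is 53.6% called, beside 17.4% of all genes tested. However, 12 of the 28 lay in the top 10% by density, where 58.3% of genes were called and the median was -0.27. The share was not computed at matched density for the list, so nothing is read from the gap. The densest were Cst3, the secreted protease inhibitor cystatin C, at 1392 ± 486, and Mt3, a metallothionein of the brain, at 692 ± 364. Cst3 had a log2 ratio of -0.85 and Mt3 one of -1.25. Sparcl1, a secreted synapse-promoting protein, and Cspg5, a proteoglycan, were called lower at -0.60 and -0.40. The GABA transporter gene Slc6a11 was lower at -0.64, the toll-like receptor partner gene Tril at -0.77, and the inhibitor of differentiation gene Id4 at -0.78. Ndrg2 (-0.32), Ppap2b (-0.42), Scg3 (-0.38) and the transcription factor gene Sox9 (-0.46) were also called lower.

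The 3 genes called higher were Nfib at 0.63, Nfia at 0.56 and the zinc transporter gene Slc39a12 at 0.60. Nfia and Nfib encode nuclear factor I proteins that drive glial differentiation. Gfap, the intermediate filament of astrocytes, was not called at -0.05, with 323 and 960 footprints and a density of 137 ± 5.15. S100b, a calcium-binding protein, had 50 and 130 footprints and was not called at -0.24.

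Radial glia and progenitor genes other than Fabp7 and Slc1a3 were mostly less dense. Of 20 genes in the full list, Fabp7 included, 19 were tested, 4 were called lower and 2 higher, and the list median was -0.16. That is 31.6% called, beside 17.4% of all genes tested. With library totals the calls were 3 lower and 5 higher. Vim, the intermediate filament vimentin, had a density of 275 ± 4.12 and was not called at -0.16. Fabp7 exceeded it by a factor of 3.69 (3.36 to 4.06) and 2.58 (2.43 to 2.74), and Slc1a3 by 1.21 (1.10 to 1.33) and 1.23 (1.17 to 1.31). Besides Fabp7, the lower calls were Sox2 (-0.77), Hes5 (-0.78) and Msi1 (-0.37), genes that maintain neural stem cells. The higher calls were Pax6 at 0.67 and Prom1 at 1.13.

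In the lists around the roles of the members, the share called was 33.3% of the lipid transport partners, 41.7% of the glutamate and glutamine list, 9.09% of the one-carbon list and 20.0% of the endfoot list, beside 17.4% of all genes tested. Of the lipid transport partners, Lpl was called higher (0.33) and Lrp1 (-0.25) and Abcg1 (-0.56) lower. In the glutamate and glutamine list, 5 of 12 genes were called, all lower: Glud1 (-0.34), Got2 (-0.43), the glutamine transporter gene Slc38a2 (-0.28), the vesicular transporter gene Slc17a6 (-0.49) and Gad2 (-0.48). In the one-carbon list 1 of 11 tested genes was called, Shmt2 at -0.48. In the endfoot list Slc7a11, a cystine and glutamate exchanger, was called higher at 1.01 and the adhesion protein gene Hepacam lower at -0.43. Among the paralogs, Aldoa (-0.30), Fabp5 (-0.70) and Slc1a4 (-0.42) were called lower and Apod (0.42) higher, and none of 9 connexins was called.

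Genes of brain regions and of other cell types moved between the replicates as well. All 10 forebrain genes were lower in replicate 2 with 7 called, and all 12 neuronal genes were lower with 9 called, at list medians of -0.39 and -0.53. Of the neuronal genes, 11 lay in the top 10% by density, where 58.3% of genes were called and the median was -0.27, and 1 of the forebrain genes did. The background for these counts is the share over all genes tested, 17.4% called, with 11.5% lower and 5.95% higher in replicate 2. For the list of cerebellar granule genes, measured in whole brain, the median was 0.43, with 2 of 7 tested genes called, both higher. Gabra6 of that list had 0 and 7 footprints. The Bergmann glia list, which shares Fabp7 and Slc1a3 with the set, had a median of 0.05, with 1 gene called higher (Sept4) and 2 lower (Fabp7 and A2m). Neuronal genes together took 0.964% of the footprints in replicate 1 and 0.747% in replicate 2.

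Some other cells of the brain can make Apoe or Clu, neurons included. The 12 microglial genes took 0.0412% and 0.0422% of the footprints, with 1 called higher and 2 lower, and none was without footprints. The 11 genes of choroid plexus and ependyma took 0.0701% and 0.0405%, with 1 called, Ttr, at 582 and 277 CPM and a log2 ratio of -1.20; none of them was without footprints. The 10 meningeal genes took 0.209% and 0.187%, with 5 called lower and 1 higher. The share called was 25.0% of the microglial, 9.09% of the choroid plexus and ependyma and 60.0% of the meningeal genes, beside 17.4% of all genes tested. The part of these cell types and regions in the differences at the 10 genes was not tested.

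**Figure D5:**
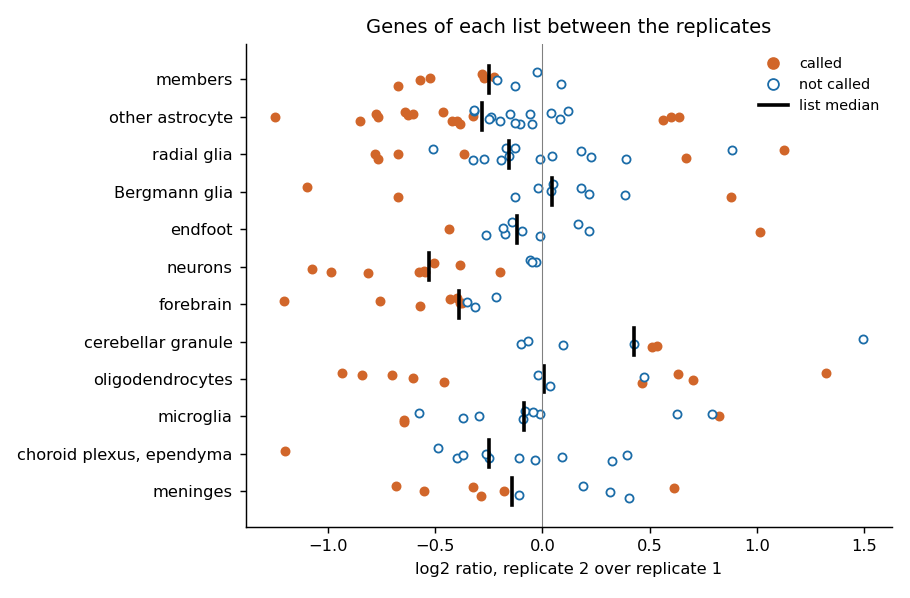
Log2 ratio of replicate 2 over replicate 1 for each tested gene of 12 lists, filled where called and open where not, with the list median as a black bar; points are spread vertically for visibility, and some genes appear in more than 1 list. The medians are -0.25 for the members, -0.28 for other astrocyte genes, -0.53 for neuronal genes and 0.43 for cerebellar granule genes.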

How the data were processed

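Brain lysates were separated on a 15 to 50% sucrose gradient, polysomes were digested with RNase I, and fragments of 25 to 35 nucleotides were sequenced, per the labels' protocols. The authors deposited raw counts per transcript, with annotated lengths in nucleotides. The submitters' processing notes name Trimmomatic 0.36, Bowtie2 2.2.6, SAMtools and build GRCm38.p4, without roles; the counting, the annotation release, the use of strand and the handling of shared or duplicate fragments are not given in the sources used here.

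Counts of the transcripts of a gene were summed. There were 85 pairs of coding transcripts of a gene with identical annotated lengths. Their mean squared difference over the sum was 0.910, over 90 pair and library values with a summed count of at least 10. Counting shared fragments on both transcripts of a pair would give 0, and placing each on either at random would give about 1. The coding length was the longest of the gene. Libraries were scaled with TMM (edgeR 4.0.16; factors 0.957 and 1.04), and a mean count of 10 or more was required for testing. Log2 ratios use a prior of 0.5 CPM. With 1 group there is no contrast for edgeR's quasi-likelihood model, so the exact binomial test was used. Pc, in a list, was not matched by symbol. DESeq2 1.42.0 size factors were an alternative. Scripts were tested on simulated data. Members and lists were chosen with earlier results of these data known. Genes named were all members, their paralogs, and in each list the densest 2 and those called; for other cell types mainly counts are given. A few list genes are counted but not reported here by name. Matched RNA was not analysed here, so levels are not translational efficiencies. PCR copies are not independent molecules, and counts of near-identical genes, pseudogene copies and overlapping genes are uncertain.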

Additional observations from a re-analysis of the deposited data

How the results depend on the processing

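The number of the 10 genes called between the replicates stayed at 5 or 6 with DESeq2 size factors, library totals, no filter and a mean count of at least 100. It also stayed there with coding transcripts only and with the highest transcript per gene. Removing the trend with footprints per kilobase of the longest transcript left it in that range too. It was 0 with the edgeR exact test, whose common dispersion was estimated from the same 2 libraries. Over all genes, 2861 were called, 1444 with the highest transcript and 11 with the edgeR exact test. Removing the trend turned the log2 ratio of Clu to 0.21, of Slc1a3 to 0.16 and of Aldoc to 0.066; Clu and Slc1a3 were then called higher, and Aldoc and Glul were no longer called. The share of the set in all footprints was 0.509%. Other settings restricted both the set and the total, so their shares are not of all footprints. They were 0.590% over coding transcripts and 0.346% over the highest transcript per gene. Without the 10 most abundant genes, of which Apoe is one, the share was 0.325%. The ratio of Slc1a3 to Slc1a2 was 0.615 over coding transcripts. The number of neighbours that differ in density was 4 to 8, against 6. No paired analysis was possible because both samples belong to 1 group. With 1 library per replicate number, leaving out either leaves no test; the values of the other library stand in the text. Depth limits genes such as Gjb6, Apoc1 and S100b, which had 50 footprints or fewer in replicate 1.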
